A study of Mus musculus with 20 samples.

Results

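The genes that encode the protein part of the cytosolic ribosome were followed in RNA-seq of the mouse temporomandibular joint (TMJ), where the lower jaw hinges on the skull. Members were chosen by symbol. A gene counted when its symbol was Rpl or Rps with a number, optionally followed by a, x or l and then optionally by 1, or when it was Rplp0, Rplp1, Rplp2 or Rpsa. Genes that the GENCODE annotation calls pseudogenes were kept apart. The rule found 83 of the 54532 genes in the table, 51 of the large and 32 of the small ribosomal subunit. Another 4 symbols had the same form but were annotated as pseudogenes, namely Rpl6l, Rpl32l, Rps4l and Rps12l1. The filter on low counts left 82 members to be tested. The member left out was Rpl10l, a testis paralogue of Rpl10, with 0 counts in all 20 libraries, which allows a level of up to between 0.0964 and 0.246 CPM, depending on the library. CPM stands for the count of a gene per 1000000 of the library size after TMM scaling, a scaling that evens out the typical gene, so that the CPM of all genes sum to between 846581 and 1395064 in a library.

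Each cytosolic ribosome holds a set of proteins bound to ribosomal RNA, and a cell needs these proteins in matching amounts. Their mRNAs are among the most abundant in most tissues, usually start with a short stretch of C and T known as a TOP motif, and are translated under the control of the mTORC1 kinase. A few members have paralogues that differ between tissues. The best known is Rpl3l, which takes the place of Rpl3 in skeletal and heart muscle.

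The samples were 8 libraries labelled Control and 12 labelled LOXL2_KO, each from TMJ condyles with part of the bone below the cartilage. All mice carried Acan-CreERT2 and both floxed Loxl2 alleles (Loxl2 fl/fl), and were 6 months old at the first injection. Control mice received vehicle and LOXL2_KO mice tamoxifen at 75 mg/kg, and tissue was taken after 4 months. The Acan promoter, active in cartilage, drove the recombinase in the cells that use it, and effects of the drug and of the deletion cannot be told apart. By the study's methods each group held males and females in equal number. The labels do not give the sex of a library, and they give no batch or pooling. P-values measure the spread between these libraries.

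Library totals lay between 11153820 and 27045668 counts. Loxl2 itself was not lower in the libraries labelled LOXL2_KO. It had 16, 70.4 and 103.5 CPM (lowest, median and highest) in Control and 28.8, 109.7 and 126 CPM in LOXL2_KO, a log2 fold change of 0.64 (SE 0.28, adjusted p = 0.101, edgeR quasi-likelihood test). The groups overlapped, and the counts cover the whole gene rather than the floxed part, so they do not check the deletion. The cartilage gene Acan ranged from 2.22 to 276 CPM in Control and from 5.18 to 244 CPM in LOXL2_KO. Control 6 and Control 8 stood lowest in Control for both genes, with 2.35 and 2.22 CPM of Acan and 29.2 and 16 CPM of Loxl2, and these libraries also stand apart for some ribosomal genes. Marker lists of other cell types moved with the labels. Of 25 skeletal muscle genes 12 were lower and 0 higher, and their summed level was 77910 to 258000 CPM in Control and 54830 to 134800 CPM in LOXL2_KO. Of 15 osteoclast genes 13 were higher and 0 lower, with sums of 298 to 1694 CPM and 818 to 8662 CPM. Of 10 tested macrophage genes 8 were higher, of 7 mast cell genes 6, and of 14 osteoblast and osteocyte genes 6. The mast cell sums were 2.22 to 20.6 CPM in Control and 5.82 to 194 CPM in LOXL2_KO. In 12 tested chondrocyte genes 3 were higher and 0 lower. Higher genes in the other lists were 2 of 12 for neutrophils, 2 of 2 for T cells, 1 of 16 for proliferating cells and 0 for B cells and red cell precursors, with 0 lower in each. No marker of these lists was at 0 in every library. In bulk tissue, fewer cells of a type and less RNA per cell cannot be told apart. Their part in the results on the ribosomal genes was not tested beyond the fits with a list as covariate given beside them.

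The first question was whether ribosomal protein mRNAs differed between the groups. Most moved little. Of the 82 tested members, 5 passed the threshold, an adjusted p under 0.05 over all 15984 genes tested. Among all genes 23.0% passed. The members higher in the libraries labelled LOXL2_KO, among them Rpl3, Rpl13a and Rpl19, were 4 of 82 or 4.88%, against 12.0% of all genes. This count rested on 1 library. Without Control 6, 15 of 82 members were higher, 18.3%, against 10.3% of all genes. Rpl3l was lower, 1 of 82 or 1.22%, against 11% of all genes. Before adjustment 19 members had a p under 0.05, which is 23.2% of members against 37.0% of all genes. Of the 82 members 18 were higher at this level, against 2929 of 15984 genes, and 1 was lower, against 2981 genes.

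The members were measured tightly. Their median SE on the log2 scale was 0.10, against 0.17 over all genes tested. In 65 of 82 members the whole 95% confidence interval of the log2 fold change lay between -0.5 and 0.5, as it did in 34.4% of all genes. The log2 fold change was above 0 in 68 members and below 0 in 14, and 70 stayed under 0.25 in size. The median was 0.12 over the members and -0.02 over all genes tested. The direction of this median held under each of the other settings run, and its size under library totals stands below.

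**Figure D1:**
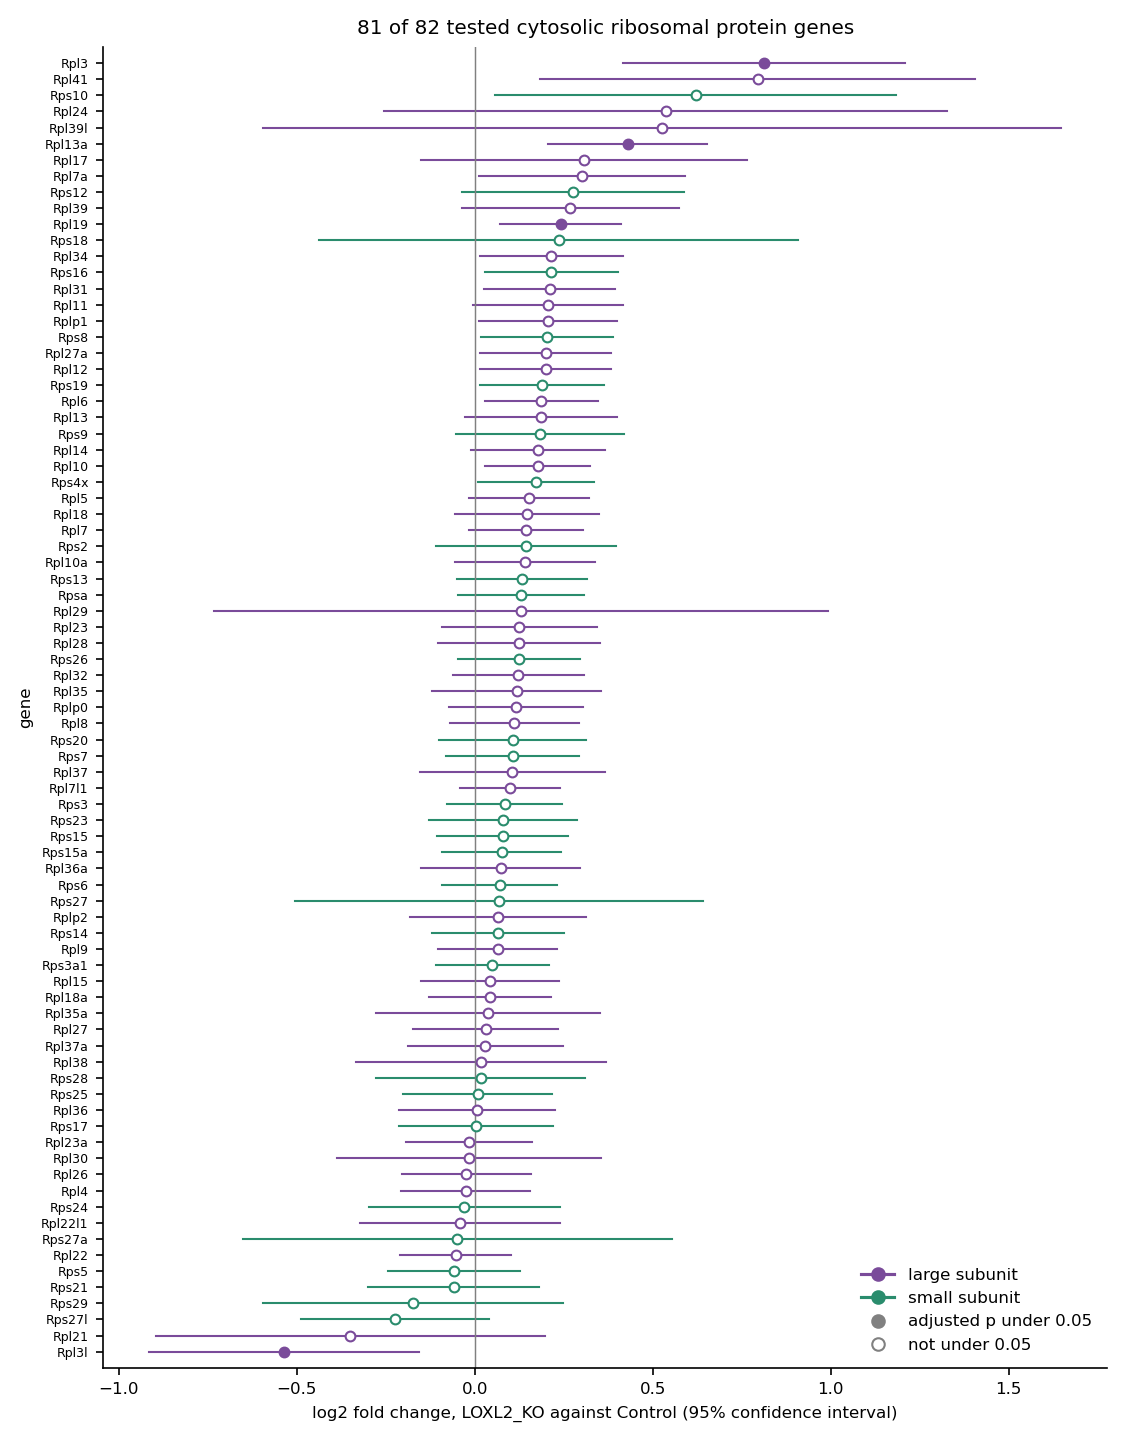
Log2 fold change of LOXL2_KO-labelled against Control libraries for 81 of the 82 tested members, with 95% confidence intervals, coloured by subunit and filled where the adjusted p was under 0.05. The points form a narrow column, with Rpl3 at the top (0.81) and Rpl3l at the bottom (-0.54).

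How many members passed depended on the scaling of the libraries. With library totals alone in place of TMM factors, 32 of 82 members were higher (39.0%, against 13.7% of all genes) and 1 was lower (against 5.31%). This scaling moved the median of all genes up by 0.14, and 72.0% of all calls were then higher, against 52.2% with TMM. Relative to the median of all genes, the member median was 0.13 with TMM and 0.15 with library totals. DESeq2's Wald test gave 6 higher members, against 11.6% of all genes, and 1 lower member, against 10.7%. Its 2 further members were Rpl10 (adjusted p = 0.0329) and Rpl41 (adjusted p = 0.0266).

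The members as a whole took a small part of the counts. Their summed share was 1.42%, 1.75% and 2.02% (lowest, median and highest) in Control and 1.74%, 2.08% and 2.56% in LOXL2_KO. The groups overlapped, with Control 8 lowest and LOXL2_KO 2 highest of all. The share of the mitochondrial genome, which fills the same total, was 15.2% to 23.1% in Control and 9.06% to 18.3% in LOXL2_KO. Without its counts the member share was 2.11% and 2.37% in the median of Control and LOXL2_KO. The large subunit genes held 1.03% and 1.23% of counts in the medians of Control and LOXL2_KO, and the small subunit genes 0.725% and 0.846%. The ratio of large to small was 1.34 to 1.49 in Control and 1.38 to 1.47 in LOXL2_KO and the ranges overlapped. As these shares are scores over the chosen members, no test was made.

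By subunit the counts stood beside 12.0% of all genes higher and 11% lower. In the large subunit 3 of 50 tested genes were higher and 1 was lower, with a median of 0.12. In the small subunit 1 of 32 was higher and 0 lower, with a median of 0.08. The 3 stalk proteins, Rplp0, Rplp1 and Rplp2, recruit the translation factors to the large subunit. None of them passed, and their values were 0.12, 0.20 and 0.07 (adjusted p = 0.369, 0.116 and 0.724). Rpl5 and Rpl11, which travel together with the smallest ribosomal RNA and bind Mdm2 when free, had values of 0.15 and 0.21 (adjusted p = 0.178 and 0.143). Of the 9 proteins around the exit tunnel of the growing chain, 1 passed, Rpl19, followed by Rpl31 (0.21, adjusted p = 0.0893) and Rpl39 (0.27, adjusted p = 0.188). Of the 5 at the mRNA channel and decoding site, 0 passed, at a median of 0.08 and with 1 of them, Rps9, nearest to a call (0.18, adjusted p = 0.251). Of the 18 genes mutated in Diamond-Blackfan anaemia, a failure of red cell formation, 0 passed in the edgeR test, with a median of 0.07. Rps19, the gene most often mutated there, had 140, 169.5 and 223.5 CPM in Control and 168, 195 and 242 CPM in LOXL2_KO (0.19, SE 0.08, adjusted p = 0.105).

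The clearest difference lay in the pair Rpl3 and Rpl3l. Rpl3 sits at the catalytic centre of the large subunit in most cells. It had 67.7, 140.3 and 201 CPM (lowest, median and highest) in Control and 160.3, 243 and 387 CPM in LOXL2_KO. The groups overlapped between 160.3 and 201 CPM, and all 12 LOXL2_KO-labelled libraries lay above the Control median. The log2 fold change was 0.81 (SE 0.19, adjusted p = 0.00597). Rpl3l had 327.5, 496 and 779.5 CPM in Control and 239, 374 and 545 CPM in LOXL2_KO. Here the groups overlapped widely, with 2 of 12 LOXL2_KO-labelled libraries above the Control median. The log2 fold change was -0.54 (SE 0.18, adjusted p = 0.0384). Rpl3 lies at chr15:80077791-80091868 and Rpl3l at chr17:24727820-24736143 (GRCm38). The longest run of identical bases between their transcripts is 22.

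Per kilobase of the longest coding transcript, Rpl3l was the more abundant of the pair in every Control library. Rpl3 made up 8.12%, 22.7% and 37.9% (lowest, median and highest) of the sum of both in Control and 23.2%, 40.2% and 62.2% in LOXL2_KO. In 4 LOXL2_KO-labelled libraries, those numbered 1, 2, 8 and 10, Rpl3 made up over 50% of the sum. The log2 ratio of Rpl3 to Rpl3l averaged -1.94 in the 8 Control libraries (SD 0.89) and -0.54 in the 12 of LOXL2_KO (SD 0.78). The difference of 1.40 had a two-sided exact permutation p = 0.00168 over all 125970 assignments, in a comparison chosen after the values were seen. The summed level of both genes averaged 497 CPM per kb in Control (SD 84.2) and 454.5 CPM per kb in LOXL2_KO (SD 46.7).

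**Figure D2:**
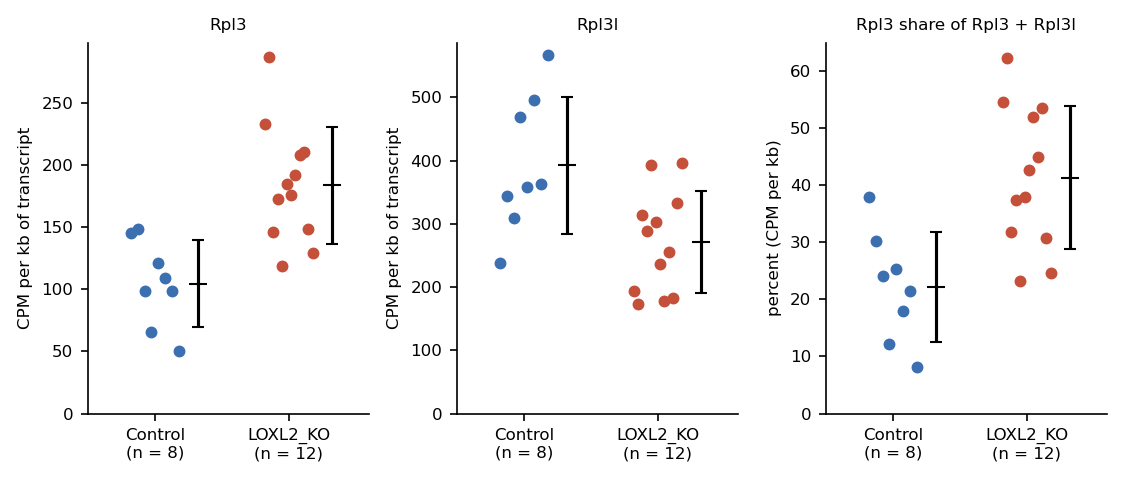
Level of Rpl3 and of Rpl3l in CPM per kb of transcript, and Rpl3 as a percentage of their sum, in the 8 Control and 12 LOXL2_KO-labelled libraries. Points are libraries and bars the mean with its SD. Rpl3 is higher and Rpl3l lower in LOXL2_KO, and the Rpl3 share runs from 8.12% to 37.9% in Control and from 23.2% to 62.2% in LOXL2_KO. The shares are of reads as counted, and near-identical copies of Rpl3 make them uncertain.

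Within each group the pair followed the amount of muscle RNA. The mean log2 CPM of the 25 skeletal muscle genes, a list that holds neither gene, was compared with each across libraries. For Rpl3 the Pearson r was -0.91 in Control (exact permutation p = 0.00337, adjusted 0.00744, Spearman rho -0.83, p = 0.0154, adjusted 0.0264) and -0.90 in LOXL2_KO (permutation p = 8e-05, adjusted 0.00048, rho -0.80, p = 0.00312, adjusted 0.00936). For Rpl3l r was 0.90 in Control (exact permutation p = 0.00372, adjusted 0.00744, rho 0.88, p = 0.00724, adjusted 0.0174) and 0.86 in LOXL2_KO (permutation p = 0.00018, adjusted 0.00054, rho 0.84, p = 0.00108, adjusted 0.00432). With the 2 most extreme libraries of the muscle score left out, r for Rpl3 was -0.87 and -0.80 in Control and LOXL2_KO, and r for Rpl3l 0.66 and 0.83. The 2 genes went against each other as well, with r of -0.76 in Control (exact permutation p = 0.0269, adjusted 0.0396) and -0.88 in LOXL2_KO (permutation p = 8e-05, adjusted 0.00048). In Control this last relation rested on 2 libraries, since r was -0.43 without them, and rho was -0.62 (exact p = 0.115, adjusted 0.138). In LOXL2_KO rho was -0.90 (permutation p = 0.00018, adjusted 0.00216), and r without the 2 farthest was -0.84. These relations belong to a family of 12 over which the p-values were adjusted.

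The osteoclast list moved with the pair too, and so did other lists, given below. Its mean log2 CPM had an r with Rpl3 of 0.72 in Control (exact permutation p = 0.0297, adjusted 0.0396, rho 0.76, p = 0.0368, adjusted 0.0490) and of 0.88 in LOXL2_KO (permutation p = 0.00018, adjusted 0.00054, rho 0.87, p = 0.00064, adjusted 0.00384). Without the 2 farthest libraries r was 0.90 and 0.76. With Rpl3l it was -0.54 in Control (exact permutation p = 0.167, adjusted 0.167, rho -0.55, p = 0.171) and -0.68 in LOXL2_KO (permutation p = 0.0161, adjusted 0.0276, rho -0.71, p = 0.0120, adjusted 0.0240), or -0.76 and -0.47 without the 2 farthest. Over 20 libraries, with group means taken out, osteoclasts had r of 0.77 with Rpl3 and -0.64 with Rpl3l. In the same order, proliferating cells had 0.76 and -0.53, and osteoblasts and osteocytes 0.67 and -0.65. Lists of mast cells, T cells, chondrocytes and macrophages had 0.45 to 0.61 and -0.52 to -0.26. Red cell precursors had 0.24 and -0.16, neutrophils 0.18 and 0.05, and B cells 0.09 and 0.04. No test was made of these values. With the muscle list as covariate the difference of Rpl3 was 0.36 (SE 0.11, adjusted p = 0.073) and that of Rpl3l -0.09 (SE 0.12, adjusted p = 0.685). With the osteoclast list as covariate they were 0.05 (SE 0.19, adjusted p = 0.978) and 0.04 (SE 0.22, adjusted p = 0.984). Both lists differed between the groups themselves. The mean log2 CPM averaged 10.6 in Control and 9.99 in LOXL2_KO for muscle, and 3.79 and 5.67 for osteoclasts. These fits therefore cannot fully separate a list from the label. Neither fit called any member. The muscle covariate left 3.25% of all genes called, with 3473 genes and 6 members at an unadjusted p under 0.05. The osteoclast covariate left 0.00% of genes called in edgeR, with 1375 genes and 0 members at an unadjusted p under 0.05. DESeq2 was not run with covariates.

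**Figure D3:**
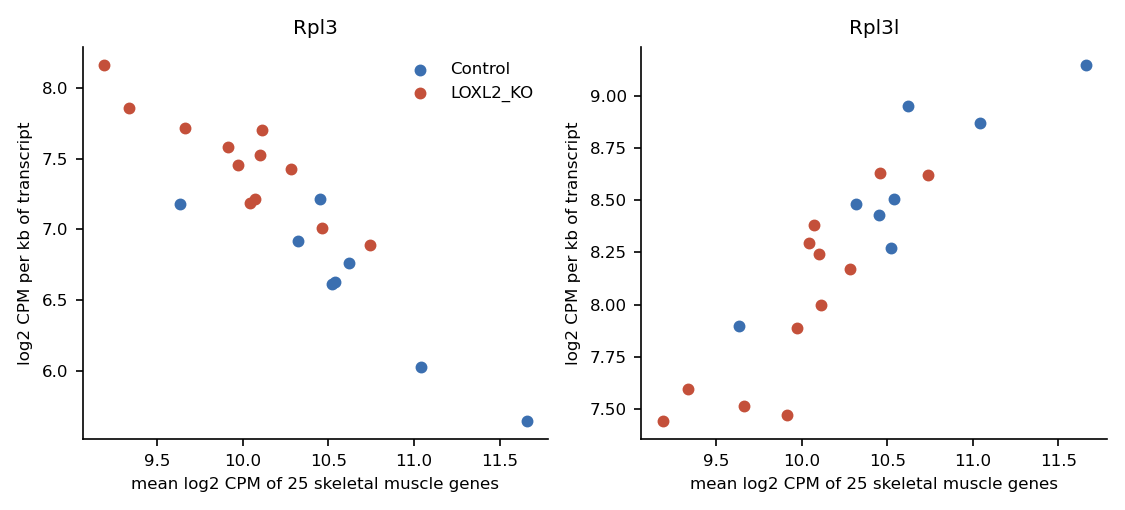
Level of Rpl3 and of Rpl3l (log2 CPM per kb of transcript) against the mean log2 CPM of 25 skeletal muscle genes, 1 point per library. Rpl3 falls and Rpl3l climbs along the muscle axis in both groups, with r between 0.86 and 0.91 in size.

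A like pair exists among the elongation factors. Eef1a1, the general factor that brings tRNA to the ribosome, had 574, 1128 and 1501 CPM in Control and 1161, 1908 and 2312 CPM in LOXL2_KO (log2 fold change 0.74, SE 0.16, adjusted p = 0.00393). Eef1a2, its form in muscle and neurons, had 1047, 1477 and 3081 CPM in Control and 724, 1135 and 1712 CPM in LOXL2_KO (-0.59, SE 0.21, adjusted p = 0.0477). Both pairs overlapped between the groups.

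Rpl13a and Rpl19 changed by smaller amounts. Rpl13a, a protein of the subunit surface that is also released to silence mRNAs in inflamed myeloid cells, had 6.74, 9.70 and 10.4 CPM in Control and 9.36, 12.4 and 15.5 CPM in LOXL2_KO. The groups overlapped, with 10 of 12 above the Control median, and the log2 fold change was 0.43 (SE 0.11, adjusted p = 0.00846). Its level was far below that of its neighbours in the ribosome. Of its words of 100 bases, 55.2% also occur in transcripts of other genes, all of these in Gm45713. Gm45713 overlaps Rpl13a on the same strand and had 0 counts in every library. In all, 35.4% of the exon bases of Rpl13a lie in exons of other same-strand genes. Rpl19, at the exit tunnel, had 206, 228 and 268 CPM in Control and 210.4, 275 and 316 CPM in LOXL2_KO (0.24, SE 0.08, adjusted p = 0.0372). Here too the groups overlapped, and 11 of 12 LOXL2_KO-labelled libraries were above the Control median. The calls of Rpl19 and Rpl3l each were lost in 9 of the 20 fits that left out 1 library. Of the 16 other fits, 9 lost the call of Rpl19, with an adjusted p of up to 0.677, and 5 that of Rpl3l. The call of Rpl13a was lost in 3, those with the replicate block (adjusted p = 0.0793) and with the muscle and osteoclast lists as covariate (0.154 and 0.71).

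Rpl41, the smallest ribosomal protein, had the second largest difference and did not pass. It had 63.4, 154 and 339 CPM in Control and 81.4, 312 and 401 CPM in LOXL2_KO (0.79, SE 0.29, adjusted p = 0.0554). LOXL2_KO 12 was far below the others of its group, and without that library the value was 0.90 (adjusted p = 0.0142). Rpl41 also passed without Control 1, Control 5 or Control 6 (adjusted p = 0.0468, 0.0412 and 0.0220). In all it passed in 4 of the 20 fits that left out 1 library and in 4 of the 16 other fits. Rps10, Rpl24 and Rpl39l came next, at 0.62, 0.54 and 0.53, with means in Control of 2.13, 0.905 and 0.481 CPM and no call (adjusted p = 0.101, 0.320 and 0.504). Below 0, Rpl21 (-0.35), Rps27l (-0.22), Rps29 (-0.17) and Rps21 (-0.06) followed Rpl3l, again with no call (adjusted p = 0.349, 0.207, 0.562 and 0.744).

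None of the remaining paralogues among the members passed the test. Rpl22 and Rpl22l1, of which the first can repress the mRNA of the second, had values of -0.05 and -0.04, with 95% intervals of -0.21 to 0.10 and -0.32 to 0.24. Rpl7 and Rpl7l1 had values of 0.14 and 0.10, with intervals of -0.02 to 0.30 and -0.04 to 0.24. Rps27l, a p53 target, had 32.9, 48.2 and 64.9 CPM in Control and 33.7, 43.0 and 51.8 CPM in LOXL2_KO, and Rps27 had a value of 0.07. Rpl39 had a value of 0.27 (interval -0.04 to 0.57), while its paralogue Rpl39l had at most 1.72 CPM in any library. Rpl10, Rps4x and Rpl36a, all on the X chromosome, had values of 0.18, 0.17 and 0.07. Rpl36al, the partner of Rpl36a, was at 0 to 0.954 CPM and was not tested. Rps4l, the partner of Rps4x, is annotated as a transcribed pseudogene. It had 2.99, 7.13 and 9.26 CPM in Control and 9.28, 12.0 and 16.4 CPM in LOXL2_KO (0.84, SE 0.18, adjusted p = 0.00318). The groups did not overlap, though they nearly touched, at 9.26 and 9.28 CPM. Its call was lost with the replicate block (adjusted p = 0.0558) and with the muscle and osteoclast lists as covariate (0.0574 and 0.544). It was kept without any 1 library. With the 4 annotated pseudogenes counted as members, 5 were higher and 1 was lower, against 12.0% and 11% of all genes. Of these pseudogenes only Rpl6l and Rps4l were tested.

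Genes whose products are part of the ribosome but whose names lie outside the rule were compared as well. Fau encodes a ribosomal protein fused to a relative of ubiquitin, and Rack1 is a signalling scaffold on the small subunit. Their values were 0.20 and 0.12 (adjusted p = 0.182 and 0.304), and neither passed. Rpsa, Rps6 and Rps27a lie inside the rule and are members. Rpsa, also known as a laminin receptor, and Rps6, which S6 kinase modifies downstream of mTORC1, had values of 0.13 and 0.07 (adjusted p = 0.278 and 0.540). Rps27a, made as a fusion with ubiquitin, had 52.6, 102 and 178 CPM in Control and 58.9, 78.1 and 200.4 CPM in LOXL2_KO (-0.05, interval -0.65 to 0.55). In both groups its libraries fell into low and high values with a gap between them.

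The levels within the group of genes spread far more than the differences between conditions. Per kilobase of merged exon, the median of the tested members in Control was 99.4 CPM, and the range ran from 0.579 to 1012 CPM. The highest were Rplp1 (1012), Rplp0 (527) and Rps3a1 (505), and the lowest Rpl39l (0.579), Rpl24 (0.878) and Rps10 (0.920). Rpl39l is a germline paralogue, but Rpl24 and Rps10 are general parts of the ribosome. Merged exons include rare isoforms, so the scale is rough for genes with long ones. Only 4 members had a mean under 20 CPM in Control, and these were Rpl13a, Rpl24, Rpl39l and Rps10.

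Such levels have to be read beside near-identical copies and overlapping genes. The table lists 300 genes that carry the name of one of these proteins with a pseudogene ending, 6 of which GENCODE annotates as protein-coding. Of 60 tested 3 were higher and 0 lower, 5% against 12.0% of all genes higher. Of the 83 members, 22 shared over 50% of their words of 100 bases with a transcript of another gene, and 8 shared none. For Rps10, 95.6% of the counts of gene and named pseudogenes together stood with the pseudogenes. Its transcript has a run of 392 bases in common with Rps10-ps2, which had 44.9 to 59.9 CPM in Control and 45.7 to 77.5 CPM in LOXL2_KO. The figure was 73.3% for Rpl17, 55.2% for Rpl21 and 32.2% for Rps12. Rpl24 shared 80.1% of its words with other genes, most of them with Gm28037 (66.8%). Of its exon bases, 47.0% lie in exons of other same-strand genes, as do 20.55% of those of Rps10. The largest overlaps were with Gm28037 and RPS10-NUDT3, each with 0 counts in every library. How reads that fit several genes were counted is not given in the sources used here, so the levels of these members are uncertain.

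The same holds for Rpl3. It shared 79.4% of its words with other genes, mostly with Rpl3-ps1, which had 9.42, 16.4 and 19.7 CPM in Control and 15.5, 24.1 and 35.6 CPM in LOXL2_KO (0.64, SE 0.14, adjusted p = 0.00446). Gene and copy moved the same way. Rpl3l shared 0% of its words with any other gene. Rps12-ps3 (0.44, adjusted p = 0.00630), which GENCODE annotates as protein-coding, and Rpl17-ps3 (0.28, adjusted p = 0.0403) were the other genes of such names called, while Rps12 (0.28, adjusted p = 0.184) and Rpl17 (0.31, adjusted p = 0.325) were not.

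Rps27 and the near copy Rps27rt share a run of 221 bases. Rps27 had 27.8 to 141 CPM in Control and 29.5 to 148 CPM in LOXL2_KO, and Rps27rt 23.4 to 113 CPM and 12.0 to 103 CPM. Many libraries with little of one had much of the other. The r between them was -0.69 in Control (exact permutation p = 0.0405, adjusted 0.0486, rho -0.55, p = 0.171) and -0.50 in LOXL2_KO (permutation p = 0.0745, adjusted 0.0812, rho -0.65, p = 0.0259, adjusted 0.0389). In Control it rested on 2 libraries, with r of -0.18 without them, and in LOXL2_KO r was -0.62 without the 2 farthest. Their sum was steadier, at 111 to 195 CPM in Control and 104 to 188 CPM in LOXL2_KO.

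Some members differed from library to library out of step with the others. In Control 8, Rpl29 was at 1.84 CPM and Rps18 at 18.8 CPM, against 68.0 to 229 CPM and 111 to 352 CPM in the other Control libraries. In LOXL2_KO they ranged from 53.4 to 172 CPM and from 128 to 310.0 CPM. Over all 20 libraries, 7 members had a highest library more than 5 times the lowest, where the median member had 1.78 times. Rpl39l, at 0 CPM in 1 or more libraries, was not counted here. Rpl29 and Rps18 are named here because of these values.

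Most of the other members went up and down together. After the group means were taken out, the r of a member with the mean of the others over 20 libraries had a median of 0.60, and it reached 0.5 in 56 of 82 members and 0.8 in 20. Rpl31 (0.94) and Rps16 (0.94) followed the rest most closely. The 11 members under 0.3 included Rps10 (-0.14), Rpl39l (0.01), Rpl29 (0.02), Rpl3l (0.07), Rpl24 (0.11), Rps18 (0.19) and Rpl3 (0.26). Taken alone, the Control libraries gave a median of 0.66 and the LOXL2_KO-labelled libraries 0.68. Of 11 marker lists, that of proliferating cells had the r farthest from 0 with the member mean (0.49), and it had an r of 0.76 with Rpl3. All these points share library depth and scaling, and no test was made.

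Control 6 and LOXL2_KO 8 weighed most on this pattern. Without Control 6 the median r was 0.55 and 3 members reached 0.8, and without LOXL2_KO 8 it was 0.55 and 15 members did. Without any other 1 library the median was 0.60 to 0.65, and 19 to 24 members reached 0.8. The mean log2 CPM of the tested members was 7.03, 7.15 and 7.59 (lowest, median and highest) in Control and 7.05, 7.36 and 7.53 in LOXL2_KO. Control 6 was the highest of all libraries, and 56 of 82 members had their highest Control value there. In LOXL2_KO, 51 of 82 members were lowest in LOXL2_KO 8. In Control 6, 79 members lay above the median of the other Control libraries, by a median of 0.39 log2. The 41 members with the shorter transcripts lay above by 0.48 and the 41 with the longer ones by 0.32. Rps29, of 390 bases, had the largest difference, 1.55, while Rpl36, of 383 bases, had 0.63 and Rpl21, of 1856 bases, 1.22. The r of the deviation with log2 transcript length was -0.24 in Control 6, 0.29 in LOXL2_KO 12 and 0.26 in LOXL2_KO 8. Control 6 also had the highest share of the mitochondrial genome, 23.1%, and little Acan. Without Control 6, 0 members were lower, against 8.00% of all genes. At an unadjusted p under 0.05, 1 member was lower, against 2591 of 16205 genes. The member median was then 0.19.

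**Figure D4:**
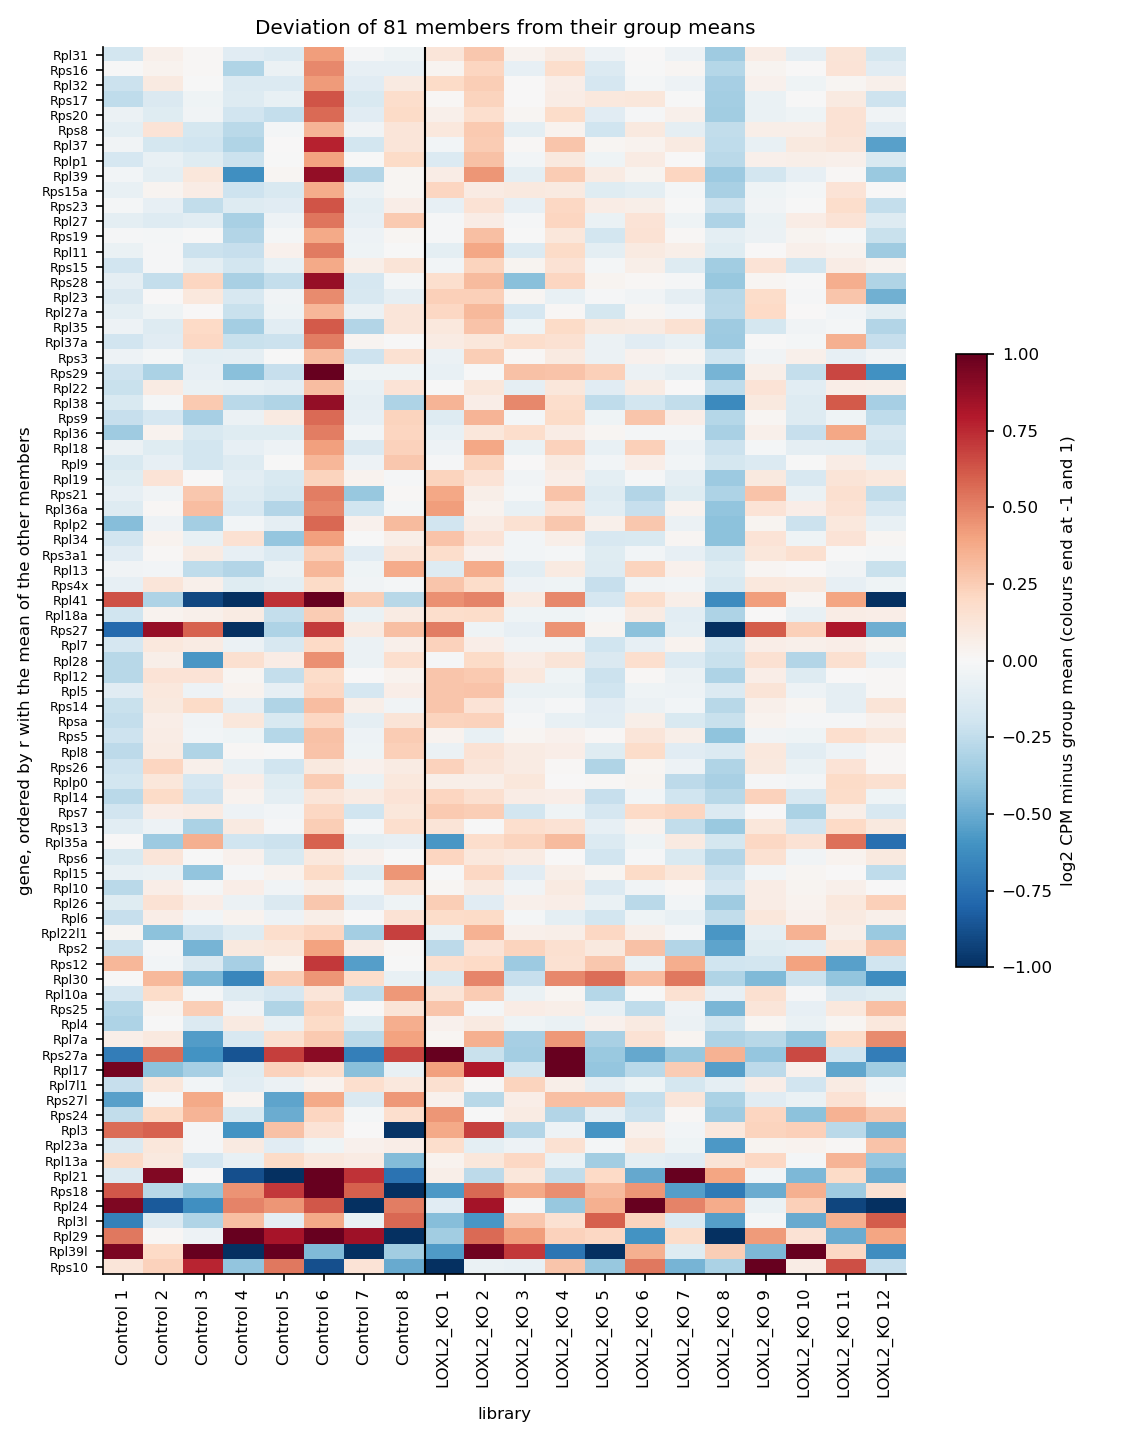
Deviation of 81 of the 82 tested members (rows) from their group means in log2 CPM, in 20 libraries (columns), with members ordered by r with the mean of the others. The column of Control 6 is red and that of LOXL2_KO 8 blue over most rows, and the rows at the bottom, down to Rps10 with r of -0.14, follow no common pattern.

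Among 8990 other protein-coding genes with a mean of at least 10 CPM, 4 had an r of at least 0.7 with the member mean, and the median r was 0.01. Closest were Sem1 (0.84), a subunit of the proteasome, Mrpl52 (0.76) of the mitochondrial ribosome, Vamp8 (0.75) of vesicle fusion and Pfdn5 (0.71) of the prefoldin chaperone. Tbca (0.70), Fau (0.69), Blvrb (0.69), Gabarap (0.69), Dnase2a (0.68) and Eef1b2 (0.68), an exchange factor of elongation, made up the first 10. Of these 10, 1 passed the test between groups, Mrpl52 (0.22, adjusted p = 0.0478), against 23.0% of all genes.

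Since the members moved together, the bases at their start sites are shown for a few. RefSeq promoters on GRCm38.p6 were given for 63 of the 83 members. Each line holds 15 bases before and 15 from the start site on, 5′ to 3′ along the gene, and capitals mark the longest unbroken run of C and T. In Rps6 and Rpl15 the run crosses the start site. Rpl13a and Rpl19 were called, Rpl31 and Rps16 followed the others most closely, and Rpl3l is the muscle paralogue. In Rpl31, Rpl19 and Rps16 the marked run ends before the start site, so it lies outside the mRNA of that start.
Rps6: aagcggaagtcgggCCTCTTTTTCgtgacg
Rpl15: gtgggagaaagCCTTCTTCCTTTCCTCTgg
Rpl31: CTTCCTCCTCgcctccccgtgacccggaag
Rpl13a: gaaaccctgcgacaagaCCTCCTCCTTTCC
Rpl19: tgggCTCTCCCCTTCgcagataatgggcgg
Rps16: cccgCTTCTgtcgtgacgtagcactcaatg
Rpl3l: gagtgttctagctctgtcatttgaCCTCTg

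These windows are chr4:86857353-86857382 (minus strand) for Rps6, chr14:18270972-18271001 (minus) for Rpl15, chr1:39367836-39367865 (plus) for Rpl31, chr7:45128731-45128760 (minus) for Rpl13a, chr11:98026909-98026938 (plus) for the second of 2 starts of Rpl19, chr7:28350674-28350703 (plus) for Rps16 and chr17:24727811-24727840 (plus) for the first of 2 starts of Rpl3l. At the start of Rpl19 not shown the longest run was 5 bases, against 11 at the start shown. At the start of Rpl3l not shown it was 4 bases. A run of at least 8 C or T lay anywhere in the window of 27 of 63 members (42.9%) and of 13.9% of all 27025 genes with a promoter entry. In the 300 bases from 250 before to 50 after the start, CCGGAAG on either strand, a form of the ETS motif, was found in 26 of 63 members (41.3%) and 9.93% of all genes, and TATAAA in 7 (11.1%) and 15.7%. The C and T run can hold the CTTCC of the first motif read on the other strand. The 27 tested members with a run had a median r with the others of 0.61 and a median log2 fold change of 0.12, and the 35 without had 0.65 and 0.12. A match is a description of the letters alone.

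The other lists of the protein synthesis machinery had medians below 0, and their counts stand beside 12.0% of all genes higher and 11% lower. Of 77 tested genes of the mitochondrial ribosome, 1 was higher and 19 were lower (1.30% and 24.7%), with a median of -0.27, and 74 values were below 0. Mrpl47, for example, had 21.4, 29.1 and 34.7 CPM in Control and 14.3, 19.8 and 28.0 CPM in LOXL2_KO (-0.47, SE 0.13, adjusted p = 0.0122). The other small p-values were those of Mrpl9 (-0.34) and Mrpl45 (-0.43). Of 38 initiation factors 2 were higher and 7 lower (5.26% and 18.4%), with a median of -0.17. The helicase Eif4a1 (0.50, adjusted p = 0.00163) and the poly(A)-binding protein Pabpc1 (0.56, adjusted p = 0.00206) were the 2 higher genes, and the helicase paralogue Eif4a2 (-0.30, adjusted p = 0.0193) was among the lower ones. Of 11 elongation factors, Eef1a1 was higher and Eef1a2 lower, and the third smallest p was that of Eef1e1 (-0.23, adjusted p = 0.172).

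The lists that bear on the making of ribosomes stand beside 23.0% of all genes called. Of 81 biogenesis factors 0 were higher and 5 lower (6.17% called), led by Gnl3l (-0.29, adjusted p = 0.00911), Krr1 (-0.31, adjusted p = 0.0132) and Wdr12 (-0.37, adjusted p = 0.0233), and the median was -0.06. The 20 genes of RNA polymerase I, which makes the ribosomal RNA precursor, had a median of -0.04, and 3 were called (15%). The initiation factor Rrn3 (-0.35, adjusted p = 0.00864) and the subunit Polr1a (-0.33, adjusted p = 0.0233) were lower, and the rDNA-binding Ubtf (0.20, adjusted p = 0.0449) was higher. Of 34 regulators of mTORC1 and of TOP mRNAs 5 were higher and 5 lower (29.4% called), with a median of -0.12. Myc, a transcription factor that drives ribosomal genes, had 4.89, 6.65 and 9.94 CPM in Control and 7.15, 12.7 and 22.8 CPM in LOXL2_KO (1.01, SE 0.20, adjusted p = 0.00217), and the groups overlapped. Its partner Max was higher (0.35, adjusted p = 0.00587), and the lysosomal GTPase Rragd was lower (-0.69, adjusted p = 0.00419). The comparison between these lists and the members was not tested.

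**Figure D5:**
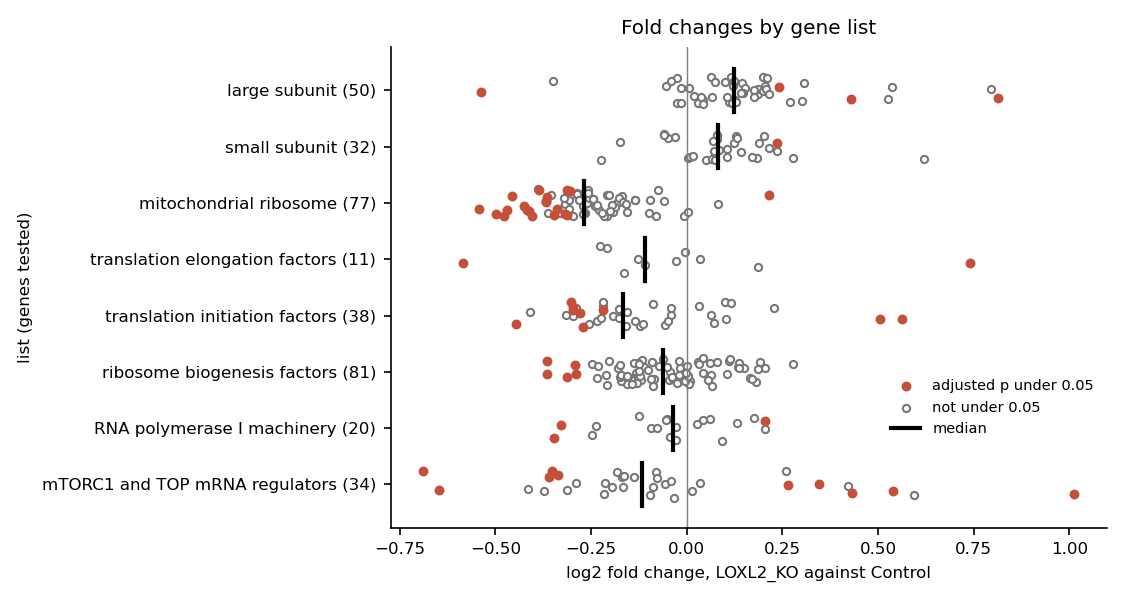
Log2 fold change of each tested gene in the 2 ribosomal subunits and in 6 other lists of the protein synthesis machinery, with the median as a black bar and genes with an adjusted p under 0.05 in red. The subunit medians lie at 0.12 and 0.08, and those of the other lists between -0.27 and -0.04.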

How the data were processed

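RNA from 20 TMJ samples was sequenced by the authors as paired-end Illumina libraries. Reads were aligned to mm10, and the deposited table holds raw counts per gene, made by the authors with featureCounts (v1.5.0-p3). The aligner, annotation release, strand setting and treatment of multi-mapped reads are not given in the sources used here. Of 54532 gene IDs, 54495 matched GENCODE M21, from which symbols, biotypes and positions came.

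Groups followed the labels, 8 Control and 12 LOXL2_KO. Counts were tested with edgeR (4.0.16, R 4.3.3): TMM scaling, filterByExpr, quasi-likelihood F-test on group alone, two-sided, Benjamini-Hochberg threshold 0.05 over all genes tested. The authors used DESeq2, here (1.42.0) an alternative. SEs were derived from the F statistic. Log2 CPM used a prior count of 2. Relations over libraries used exact permutation for 8 libraries and 100000 resamples for 12, two-sided (SciPy). The test script was checked on simulated data.

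The members and gene lists were chosen with earlier results of these data known. Named genes were the paralogue pairs, stalk and other listed members, the 5 largest changes each way, the 5 smallest p-values, the 3 highest and 3 lowest levels per kb, the 3 smallest p-values of other lists, and the 10 genes of most similar pattern. Rpl29, Rps18, Rpl17, Rps16, Rpl31 and the near copies were named after their values were seen, and 2 genes that the rule names are not reported here. Alternatives covered scaling, filter, tool, length and GC trends, replicate numbers, covariates and omitted libraries. Counting the annotated pseudogenes as members and leaving single libraries out of the correlations among members were added after the data were seen. Depth limits precision through counting error. Library totals were 11153820 to 27045668.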

Additional observations from a re-analysis of the deposited data

Results flagged for a closer look

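In 7 members 1 Control library stood apart from the other 7 by a gap of over 0.526 of the range of the group, and for 6 of them this library was Control 6. Chance alone flags about 1 in 20 such groups. Rps29 was at 217 CPM in Control 6 and between 64.0 and 83.0 CPM in the others. Rpl39 was at 132.5 CPM (others 46.9 to 77.9), Rpl11 at 267 CPM (others 158 to 192) and Rps19 at 223.5 CPM (others 140 to 174). Rps16 was at 239 CPM (others 139 to 176) and Rpl31 at 248 CPM (others 164 to 192), also in Control 6. Rpl17 was at 91.7 CPM in Control 1 and between 35.2 and 55.2 CPM in the others. The values that stood beside this in Control 6 are the share of the mitochondrial genome, 23.1%, and the mean of the members, 7.59 log2 CPM, both the highest of all 20 libraries, and Acan at 2.35 CPM, and their part in it was not tested.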

How the results depend on the processing

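Replicate numbers did not pair the libraries: same-numbered libraries had r between -0.36 and 0.17, and 0 of 8 correlated best with their own number. A fit with the replicate block (16 libraries) called 1 member higher and 0 lower (7.06% and 4.41% of all genes); those libraries without the block gave 3 and 1 (11.5% and 9.54%). Higher members numbered 2 with upper-quartile factors (11.4% of all genes), 2 with no filter (4.86%), 2 with the GC trend removed (10.9%), 32 with library totals (13.7%), and 0 with the muscle (1.86%) or osteoclast (0%) list as covariate. Lower members numbered 0 with no filter (3.87% of all genes) and with the muscle (1.39%), osteoclast (0%) or marrow (9.07%) covariate. The fits with no filter test more genes; for the rest the cause was not tested. The member median was 0.27 with library totals, 0.04 to 0.13 in the other fits, and 0.093 to 0.19 with 1 library left out. Leaving out 1 library gave 2 to 15 higher members (15 without Control 6, 2 without Control 3, Control 7, LOXL2_KO 2 or LOXL2_KO 4) and 0 to 1 lower, the latter lost without Control 4, 6 or 8 or LOXL2_KO 1, 2, 7, 8, 9 or 10. The difference of the summed share was 0.334 percentage points, 0.222 to 0.348 under other denominators and 0.353 with the pseudogenes added to the members. Rpl3 and Rpl13a kept their call without any 1 library.

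The sign turned for Rpl3l, which was called, at 0.041 with the osteoclast covariate, and for the uncalled members below. With library totals Rpl22 was at 0.10, Rpl22l1 0.13, Rps27a 0.14 and Rps21 0.091. With the muscle covariate Rpl22l1 was at 0.030, Rpl39l -0.25 and Rps27l 0.014, and with the osteoclast covariate Rpl39l -0.85, Rps27l 0.21, Rps29 0.10 and Rpl17 -0.037. With the GC trend removed Rps27 was at -0.052, Rplp2 -0.059, Rps6 -0.069 and Rps3a1 -0.0024, and with the length trend removed Rpl7l1 -0.0015 and Rplp2 -0.023. In the 16 libraries Rps27 was at -0.039 with the block and -0.083 without, and Rps27a at 0.044 and 0.038. Leaving out 1 library gave -0.085 to 0.0019 for Rpl22, -0.090 to 0.089 for Rpl22l1, -0.056 to 0.21 for Rps27, -0.18 to 0.10 for Rps27a, -0.24 to 0.14 for Rps29, -0.11 to 0.034 for Rps21 and -0.050 to 0.37 for Rpl29. Depth, near-identical copies and overlapping genes limit Rpl10l, Rpl39l, Rpl36al, Rpl24 and Rps10.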
